A study of Homo sapiens with 8 samples.

Results

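E proteins are basic helix-loop-helix transcription factors that bind E-box DNA as dimers, and in human cells they are encoded by TCF3 (E2A), TCF12 (HEB) and TCF4 (E2-2). The ID proteins, encoded by ID1, ID2, ID3 and ID4, have the helix-loop-helix but no basic region, so they pair with E proteins and keep them off DNA. E proteins also contact the ETO family through NHR domains of the ETO moiety, and both AML1-ETO and ETO2-GLIS2 carry such domains. The binding of these 2 leukemia fusion proteins was therefore examined at the 7 genes that encode their E-protein partners and the ID antagonists of those partners. All peaks were taken whose summit lay in the hg19 body of 1 of the 7 genes or within 20 kb of it. This gave 252 of the 235023 peaks in 4 peak lists, and the 7 genes are 7 of 20163 protein-coding genes.

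The peaks came from chromatin immunoprecipitation with sequencing (ChIP-seq) in U937, a human monocytic cell line. In this design, 1 stable line carried HA-tagged AML1-ETO, in which the Runt domain of RUNX1 is joined to RUNX1T1 (ETO), and the other carried HA-tagged ETO2-GLIS2, in which CBFA2T3 (ETO2) is joined to the zinc fingers of GLIS2. Both genes were under a doxycycline-inducible promoter delivered by a retroviral vector, each line was a single clone, and all cells received doxycycline at 5 µg/ml for 12 or 48 h. Anti-HA beads were used to pull down the tagged proteins, and each fusion protein and time had 1 ChIP library and 1 input library, 8 in all. With 1 ChIP library per condition no difference has a replicate check, so no test was made and no p-value is given, and uninduced cells were not analysed here. The lists held 70833 peaks for AML1-ETO at 12 h, 105769 at 48 h, 28325 for ETO2-GLIS2 at 12 h and 30096 at 48 h. They carry no read numbers. The study's own table of reads per library, in which the later ETO2-GLIS2 ChIP library is the smallest of the ChIP libraries, was not used to rescale them. Intervals on shares are exact 95% binomial (Clopper-Pearson) intervals, which cover counting error only, and neighbouring peaks are not independent.

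Each peak is described by its rank in its own list by −log10 q, the peak caller's measure of significance, where rank 1 is the strongest and tied peaks share the lower number. The rank is also given as a percent of the list, because the lists differ in length. Fold enrichment is the ratio of ChIP signal at the summit to the local background, and it was not compared between lists. A start-site peak is one whose summit lay within 1 kb of any annotated start site of the gene, and a shared peak overlapped a peak of the other fusion protein at the same time by at least 1 bp.

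Of the 5 genes with a shared peak at 48 h, 4 had their best-ranked shared ETO2-GLIS2 peak more than 1 kb from any start site of that gene, and ID2 had it at one. The reference sequences of GRCh37 at these sites are shown so that the letters under the strongest shared summit of each gene can be read beside its ranks. Each is the plus strand of 200 bp centred on the summit of the best-ranked ETO2-GLIS2 peak at 48 h that overlapped an AML1-ETO peak. Capitals mark matches, on either strand, to the E-box CAGCTG or CACCTG, the Runt motif (TGTGGT or TGCGGT), the GLIS core TGGGGGG and the AP-1 motif (TGACTCA or TGAGTCA). The TCF3 site at chr19:1655523-1655722 holds a Runt, an AP-1 and a GLIS match, and the ID3 site at chr1:23881149-23881348 holds an E-box and a pair of adjacent GLIS matches. An AP-1 match lies in the ID1 site at chr20:30198467-30198666. Neither the TCF12 site at chr15:57591976-57592175 nor the 144 bases shown of the ID2 site at chr2:8821696-8821839 holds any of these letters. At ID2, 56 annotated UTR bases of the window were left out, and the whole 200 bp window holds 1 Runt match that is not within the bases shown. A match describes letters in the window and no binding of a given factor.
TCF3: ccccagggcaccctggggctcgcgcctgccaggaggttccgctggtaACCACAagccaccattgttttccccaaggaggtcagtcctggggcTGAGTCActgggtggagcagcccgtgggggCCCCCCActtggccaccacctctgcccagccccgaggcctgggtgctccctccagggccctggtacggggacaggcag
TCF12: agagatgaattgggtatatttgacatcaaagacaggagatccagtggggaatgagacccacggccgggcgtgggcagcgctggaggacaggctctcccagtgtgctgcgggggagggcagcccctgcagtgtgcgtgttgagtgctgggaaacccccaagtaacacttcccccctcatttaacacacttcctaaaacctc
ID1: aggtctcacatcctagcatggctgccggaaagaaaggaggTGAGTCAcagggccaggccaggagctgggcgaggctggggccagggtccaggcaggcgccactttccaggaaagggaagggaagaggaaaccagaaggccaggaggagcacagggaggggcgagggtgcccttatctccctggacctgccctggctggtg
ID2: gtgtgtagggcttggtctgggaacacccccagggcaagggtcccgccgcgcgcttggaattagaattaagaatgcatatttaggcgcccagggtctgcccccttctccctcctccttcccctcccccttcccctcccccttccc
ID3: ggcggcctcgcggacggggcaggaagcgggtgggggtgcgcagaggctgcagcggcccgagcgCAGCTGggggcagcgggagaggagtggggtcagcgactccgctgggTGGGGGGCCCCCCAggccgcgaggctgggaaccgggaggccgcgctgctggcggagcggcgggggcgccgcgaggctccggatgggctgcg

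At least 1 peak was found at 6 of the 7 genes for AML1-ETO at each time and at 5 for ETO2-GLIS2 at each time. Having a peak was common among all protein-coding genes, with shares of 77.6% and 80.3% for AML1-ETO at 12 and 48 h, while ETO2-GLIS2 reached 66.4% and 66.0%. ID4 had no peak in any list, and TCF4 had none for ETO2-GLIS2. Start-site peaks were at 5 of the 7 genes for AML1-ETO at 12 h, at 4 genes at 48 h, and 5 at both times for ETO2-GLIS2. TCF3, TCF12 and ID3 had one in all 4 lists, TCF4 for AML1-ETO only, ID1 for ETO2-GLIS2 only and ID2 in all lists but AML1-ETO at 48 h. Over all protein-coding genes, 54.0% and 59.8% had an AML1-ETO start-site peak at 12 and 48 h, and 42.8% and 45.7% had an ETO2-GLIS2 one. The rule goes by the summit. A peak covered the canonical start site of 6 genes for AML1-ETO at each time, ID2 at 48 h included. For ETO2-GLIS2 it did so at 3 genes at 12 h and 5 at 48 h. No share over all genes is given for cover. With 7 genes, these counts do not set the group apart from other genes.

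The 7 gene windows held 82 (12 h) and 88 (48 h) AML1-ETO peaks, against 35 and 47 ETO2-GLIS2 peaks. Of these, the E-protein genes held 51, 61, 22 and 23 and the ID genes 31, 27, 13 and 24, in the same order. The AML1-ETO lists were also the longer ones, and the reason for the difference was not tested. When each list was cut to its 28325 strongest peaks, the windows held 33 and 21 AML1-ETO peaks at 12 and 48 h. They then held 35 and 44 ETO2-GLIS2 peaks, so the order turned at both times, by 2 peaks at 12 h. An all-gene count for the cut lists is not given here. Per 100 kb of window there were 7.07 and 7.59 AML1-ETO peaks and 3.02 and 4.05 ETO2-GLIS2 peaks, and over the windows of all protein-coding genes 4.65, 7.03, 2.1 and 2.36.

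**Figure D1:**
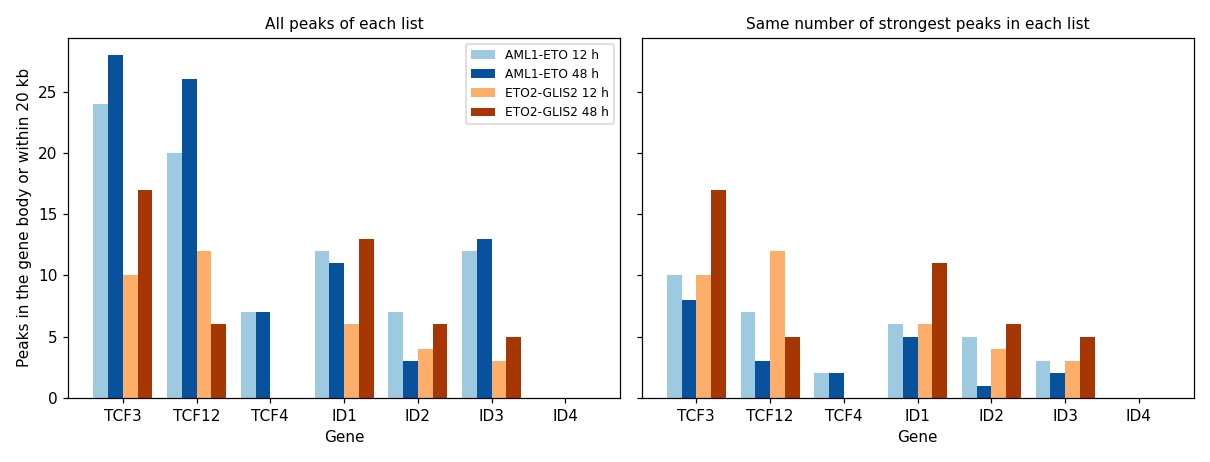
Number of peaks (vertical axis) in the body of each gene or within 20 kb of it (horizontal axis), with 1 bar per peak list; the left panel uses all peaks and the right panel the 28325 strongest peaks of each list. TCF3 has the most AML1-ETO peaks at 48 h in the left panel (28) and the most ETO2-GLIS2 peaks at 48 h in the right panel (17), and ID4 has none.

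A peak of the other fusion protein overlapped 27 of the 82 AML1-ETO peaks at 12 h (32.9%, interval 22.9 to 44.2) and 22 of the 88 at 48 h (25%, 16.4 to 35.4). In the other direction the shares were 28 of 35 ETO2-GLIS2 peaks at 12 h (80%, 63.1 to 91.6) and 42 of 47 at 48 h (89.4%, 76.9 to 96.5). Most ETO2-GLIS2 peaks at these genes thus lay on AML1-ETO peaks, as in the whole lists, where 26.2% and 17.8% of AML1-ETO peaks, against 74.5% and 83.4% of ETO2-GLIS2 peaks, were shared. All of these list shares lie inside the intervals of the member peaks. The shares depend on the rule of overlap: with summits required to lie within 200 bp, 18 of 35 ETO2-GLIS2 peaks at 12 h (51.4%) and 14 of 47 at 48 h (29.8%) were shared. The whole-list shares by that rule are not given here. Peak width enters here, since 1 wide AML1-ETO peak can cover several ETO2-GLIS2 peaks.

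Between the times, 57 of the 82 AML1-ETO peaks at 12 h (69.5%, interval 58.4 to 79.2) overlapped a peak at 48 h, and 31 of the 88 at 48 h (35.2%, 25.3 to 46.1) overlapped one at 12 h. For ETO2-GLIS2 the shares were 25 of 35 (71.4%, 53.7 to 85.4) and 27 of 47 (57.4%, 42.2 to 71.7). The whole AML1-ETO lists gave 73.9% and 36.8%, and those of ETO2-GLIS2 gave 60.6% and 54.6%, again inside the intervals. Joined into regions, the 252 peaks formed 117, of which 15 were found in all 4 lists, 88 held AML1-ETO peaks only and 8 held ETO2-GLIS2 peaks only. The 15 regions fell at TCF3 (6), TCF12 (3), ID3 (3), ID1 (2) and ID2 (1). Some of those counted at TCF3 lay nearer to the start of MBD3 or UQCR11, and the ID3 region at chr1:23866114-23866716 lay nearer to E2F2. A region joins overlapping peaks in a chain, so peaks of different lists within a region need not overlap each other. Regions were not counted over the whole lists, of which those of AML1-ETO are the longer. The region counts therefore do not set these genes apart. With a −log10 q of at least 5 required in both lists, 94.3% of the AML1-ETO peaks at 12 h and 86.4% of the ETO2-GLIS2 peaks at 12 h were found again at 48 h. In the other direction, 53.8% of the AML1-ETO peaks (21 of 39) and 76.7% of the ETO2-GLIS2 peaks at 48 h had been found at 12 h. The whole-list shares with that requirement are not given here, so these values do not set the genes apart.

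The median rank of the member peaks was near the middle of each list, at 48.5% and 51.4% with AML1-ETO, then 48.2% and 46.6% with ETO2-GLIS2. The strongest 10% of each list held 7, 10, 5 and 4 of them. These are 8.54%, 11.4%, 14.3% and 8.51% of the member peaks, against 10% of all peaks by definition. The plots of positions and ranks show that these peaks lay at TCF3, TCF12, ID1, ID2 and ID3, while TCF4 had no peak in the strongest 10% of any list.

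**Figure D2:**
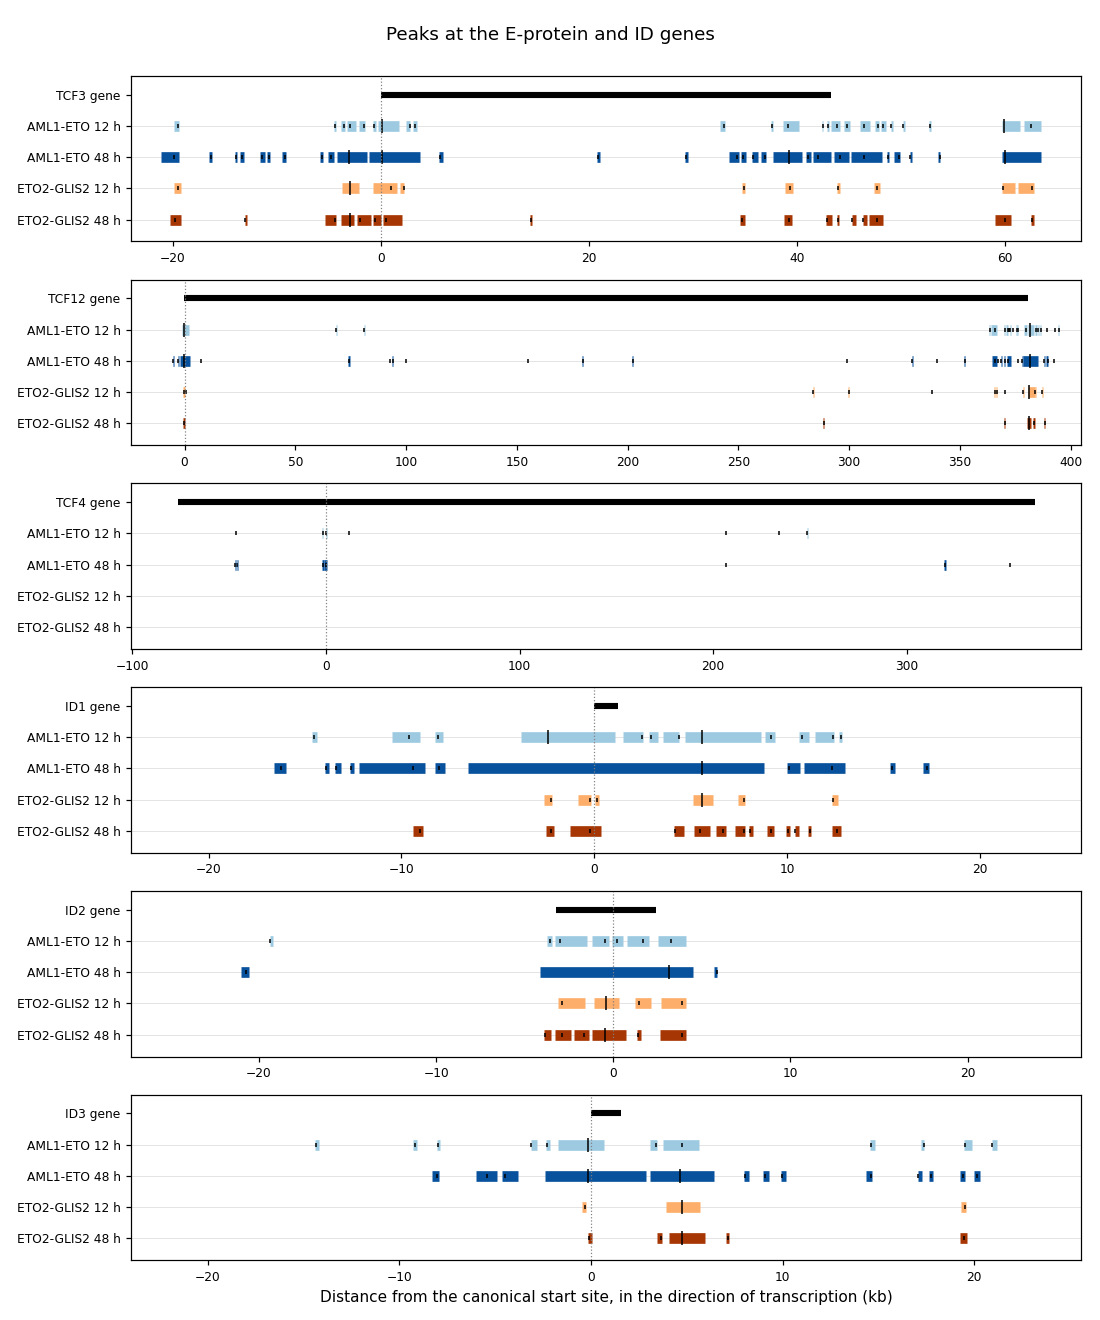
Peaks at the 6 genes that had any, drawn as bars along the distance from the canonical start site in the direction of transcription (kb, dotted line at the start site), with 1 row per list; the black bar is the gene, black ticks are summits and tall ticks mark peaks in the strongest 10% of their list. At ID1, 5 AML1-ETO peaks of 12 h lie within 1 peak of 15318 bp at 48 h, and at ID2, 6 lie within 1 peak of 8651 bp.

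**Figure D3:**
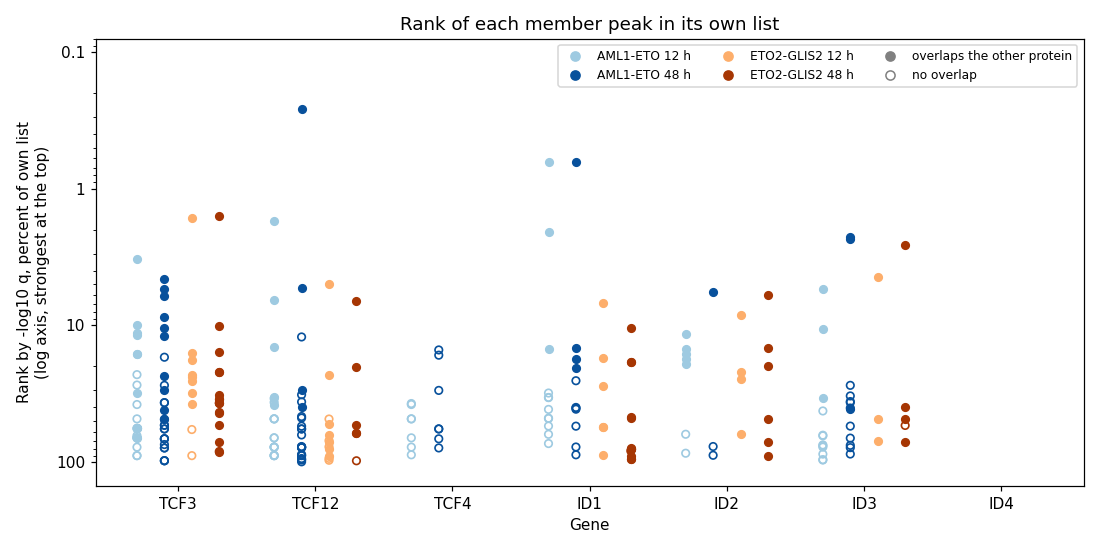
Rank of each of the 252 member peaks in percent of its own list (log axis, strongest at the top) by gene and list; filled points overlap a peak of the other fusion protein at the same time and open points do not. The highest point is the AML1-ETO peak of 48 h at the TCF12 start site (0.259%), and TCF4 has open AML1-ETO points only.

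TCF3 encodes the splice variants E12 and E47. The gene lies at chr19:1609290-1652614 on the minus strand, and its 83.3 kb window held 24 and 28 AML1-ETO peaks at 12 and 48 h and 10 and 17 ETO2-GLIS2 peaks. The strongest ETO2-GLIS2 peak of the window was not at the start site but upstream of it. Its summit lay 3013 bp upstream at 12 h (rank 461, 1.63% of the list, fold enrichment 63.4, width 1605 bp) and 3009 bp upstream at 48 h (rank 479, 1.59%, 69.8, 1227 bp). These were the best ranks that any of the 7 genes had for ETO2-GLIS2. AML1-ETO had a peak at the same place, ranked 8299 (11.7%) at 12 h and 6470 (6.12%) at 48 h, and the summits of the 2 proteins were 74 and 12 bp apart. This is the site whose sequence with Runt, AP-1 and GLIS matches is given above.

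At the TCF3 start site AML1-ETO stood higher than ETO2-GLIS2 in percent of the list at both times, but at 48 h not by rank number, the AML1-ETO list being the longer one. The AML1-ETO peak ranked 2303 at 12 h (3.25%, fold enrichment 26.4, width 2001 bp, summit 33 bp inside the nearest start site) and 5723 at 48 h (5.41%, 20.7, 4897 bp, 81 bp). Both summits lay in the untranslated part of exon 1. The ETO2-GLIS2 peak ranked 6809 at 12 h (24%, 10.2, 2277 bp) and 4752 at 48 h (15.8%, 15.1, 1752 bp), with both summits in intron 1 and 870 and 419 bp from the AML1-ETO summit. A further region in intron 18 was found in all 4 lists. Its ranks were 8016 and 4866 (AML1-ETO), then 4534 and 3021 (ETO2-GLIS2), and its AML1-ETO peak at 48 h (fold enrichment 23.1) was the best-ranked AML1-ETO peak of the window at that time.

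The TCF3 window also reaches into neighbouring genes. Of its peaks, 12, 8, 4 and 7 in the 4 lists (AML1-ETO at 12 and 48 h, then ETO2-GLIS2 at 12 and 48 h) lay nearer to the start of another protein-coding gene. Of those, 10, 7, 2 and 5 were nearest to UQCR11, a subunit gene of respiratory complex III. The others were near MBD3, a subunit gene of the NuRD complex, with a start site 116 bp from an AML1-ETO summit at 12 h (rank 7028) and 20 bp from an ETO2-GLIS2 summit at 12 h (rank 7273).

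TCF12 encodes HEB. The gene lies at chr15:57210821-57591479 on the plus strand, and its 421 kb window held 20 and 26 AML1-ETO peaks and 12 and 6 ETO2-GLIS2 peaks. The AML1-ETO start-site peak was among the strongest of its lists, with rank 1225 at 12 h (1.73%, fold enrichment 35.2, width 3035 bp, summit 33 bp upstream) and rank 274 at 48 h (0.259%, 62.3, 4279 bp, 1 bp upstream). That was the best rank of any of the 252 peaks. ETO2-GLIS2 had a start-site peak with rank 6572 at 12 h (23.2%, 9.88, 725 bp) and 6120 at 48 h (20.3%, 12.1, 1076 bp), with summits 228 and 245 bp from those of AML1-ETO. The start region is shared with the divergent noncoding gene TCF12-DT, 91 and 123 bp from the AML1-ETO summits and 23 and 8 bp from those of ETO2-GLIS2. An unnamed protein-coding gene of the annotation (ENSG00000285253) starts 19 bp from the AML1-ETO summit of 12 h, so the peak cannot be given to TCF12 alone.

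For ETO2-GLIS2 the strongest TCF12 peak lay just past the 3′ end of the gene. It ranked 1416 at 12 h (5%, fold enrichment 33.6, width 3111 bp) and 2004 at 48 h (6.66%, 24.3, 1841 bp), and AML1-ETO peaks there ranked 4647 (6.56%) and 5624 (5.32%). The ETO2-GLIS2 summits were 458 and 487 bp from the start of the noncoding gene LINC00926 and far from the TCF12 start. Within the gene body, leaving out start-site peaks, there were 11 and 18 AML1-ETO peaks with median ranks of 66.7% and 70.4%, and 6 and 2 ETO2-GLIS2 peaks with median ranks of 79.2% and 79.9%. The strongest of them was an AML1-ETO peak in intron 20, with rank 10230 at 12 h (14.4%, fold enrichment 10.3, width 2608 bp) and 12879 at 48 h (12.2%, 10.6, 2151 bp).

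TCF4 encodes E2-2. The gene lies at chr18:52889416-53332018 on the minus strand and spans 443 kb. AML1-ETO had 7 peaks there at each time, all in the gene body and none shared, and ETO2-GLIS2 had none at either time. The best AML1-ETO peak lay in the untranslated part of exon 1 at the canonical start site, with rank 26508 at 12 h (37.4%, fold enrichment 4.53, width 534 bp) and 16034 at 48 h (15.2%, 8.53, 1584 bp). A second peak 1787 bp upstream at 12 h (rank 26953) and 1710 bp upstream at 48 h (rank 17518) lay near another annotated start site of TCF4, which has 90 of them. That start site was 133 and 56 bp from the summits. An unnamed noncoding gene (ENSG00000267284) starts nearer, at 75 and 2 bp, so this second peak cannot be given to TCF4 alone. The absence of ETO2-GLIS2 peaks can be set beside other genes of this length. Of 417 protein-coding genes at least as long as TCF4, 165 (39.6%) had no summit in either ETO2-GLIS2 list. This count was chosen after the TCF4 values were seen.

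ID1 is a short gene, at chr20:30193086-30194318 on the plus strand, and its 41.2 kb window held 12 and 11 AML1-ETO peaks and 6 and 13 ETO2-GLIS2 peaks. AML1-ETO peaks covered 37.4% of the window at 12 h and 58.1% at 48 h, against 7.29% and 15.9% for ETO2-GLIS2. At 12 h AML1-ETO had a peak of 4886 bp over the start site with its summit 2385 bp upstream (rank 1465, 2.07%, fold enrichment 18.4) and a stronger one 5602 bp downstream of the start site (rank 451, 0.637%, 31.3, 3959 bp). At 48 h both lay within a single peak of 15318 bp (rank 671, 0.634%, 23.1) whose summit was again downstream, at 5594 bp. Only 85 of the 105769 AML1-ETO peaks at 48 h were at least that wide. A peak thus covered the ID1 start site in both AML1-ETO lists, but its summit lay over 1 kb away, upstream at 12 h and downstream at 48 h, so it did not count as a start-site peak.

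ETO2-GLIS2 gave separate peaks inside that stretch, and the wide AML1-ETO peak overlapped 7 of them at 48 h. The strongest lay 5587 bp downstream of the start site at 12 h (rank 1941, 6.85%, fold enrichment 16.6) and 5475 bp downstream at 48 h (rank 3160, 10.5%, 14.5). Its summits were 15 and 119 bp from those of AML1-ETO. The best ETO2-GLIS2 start-site peak had rank 15812 at 12 h (55.8%, 3.63) and 5581 at 48 h (18.5%, 9.59), with summits 213 and 238 bp upstream of the nearest ID1 start site. An unnamed noncoding gene of the annotation (ENSG00000289875) starts nearer to both summits than ID1 does, so the peak cannot be given to ID1 alone.

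ID2 lies at chr2:8818975-8824591 on the plus strand, and its canonical transcript starts at position 8822186, inside the annotated gene. AML1-ETO had 7 peaks at 12 h and 3 at 48 h, and ETO2-GLIS2 had 4 and 6. Of the 7 AML1-ETO peaks at 12 h, 6 lay in the region covered at 48 h by a single peak of 8651 bp (rank 6023, 5.69%, fold enrichment 20.1) that overlapped all 6 ETO2-GLIS2 peaks of 48 h. The best-ranked AML1-ETO peak at 12 h lay 3252 bp downstream of the canonical start site (rank 8239, 11.6%, fold enrichment 12.3, width 1586 bp), near the summit of the wide peak at 3155 bp. The drop from 7 to 3 AML1-ETO peaks therefore went with a larger covered length, 6719 bp at 12 h and 9319 bp at 48 h. The best ETO2-GLIS2 peak lay 434 bp upstream of the canonical start site at 12 h (rank 2396, 8.46%, 23.4) and 446 bp upstream at 48 h (rank 1809, 6.01%, 30.5), 241 and 253 bp from the start of the noncoding gene ID2-AS1. The best-ranked AML1-ETO start-site peak at 12 h (rank 10652, 15%, fold enrichment 10) had its summit 2986 bp upstream of the canonical start site and 225 bp inside another one.

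ID3 lies at chr1:23884417-23885992 on the minus strand, and its window held 12 and 13 AML1-ETO peaks and 3 and 5 ETO2-GLIS2 peaks. The proteins had their strongest peaks at different places. For AML1-ETO it was the start site, with summits 159 and 155 bp upstream and ranks of 3817 at 12 h (5.39%, fold enrichment 19.3, width 2407 bp) and 2373 at 48 h (2.24%, 34.1, 5269 bp). ETO2-GLIS2 was weak there, at rank 19953 (70.4%, 4.12) and 14504 (48.2%, 5.6), with peaks of 212 and 209 bp that did not overlap each other between the times.

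The strongest ETO2-GLIS2 peak of ID3 lay 4738 bp downstream of the start site at 12 h (rank 1258, 4.44%, fold enrichment 28.7) and 4743 bp downstream at 48 h (rank 776, 2.58%, 54.7). AML1-ETO peaks there ranked 7495 (10.6%, 12.4) and 2463 (2.33%, 33.6), so at 48 h this site and the start site were nearly equal for AML1-ETO. The summits of the proteins were 15 and 112 bp apart. This is the site whose sequence with 1 E-box and a pair of GLIS matches is given above. Further out in the window, 4, 5, 1 and 1 peaks in the 4 lists lay nearer to E2F2, a cell cycle transcription factor gene, than to ID3.

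ID4 lies at chr6:19837601-19842428 on the plus strand, and its 44.8 kb window held no summit in any list. The window widened to 50 kb on each side held none either.

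Around the edge of the 20 kb windows, the nearest summit outside was an AML1-ETO peak of 48 h 8 bp beyond the ID3 window (rank 91627), and the nearest inside was an AML1-ETO peak of 48 h 92 bp within the TCF3 window (rank 11090).

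The member peaks had a larger median width than the whole list in 3 lists and a smaller one for AML1-ETO at 48 h. The median width was 385.5 bp for AML1-ETO at 12 h (360 bp over the list), 338 bp at 48 h (415 bp), 419 bp for ETO2-GLIS2 at 12 h (382 bp) and 495 bp at 48 h (399 bp). The widest member peaks were 4886, 15318, 3111 and 1927 bp. Thus AML1-ETO at 48 h had both the widest peak and the lowest median width at these genes.

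The shares of member summits with a motif match could not be told apart from those of the lists in 200 bp windows, with exceptions in smaller windows. The E-box CAGCTG was within 100 bp of 14.6% and 6.82% of the AML1-ETO member summits at 12 and 48 h (14.0% and 13.7% of all summits) and of 22.9% and 17.0% of the ETO2-GLIS2 ones (16.3% and 16.8%). For the E-box CACCTG the shares were 29.3%, 26.1%, 20% and 19.1% against 21.8%, 22.8%, 17.7% and 19.6%. Both E-boxes are cases of the general form CANNTG. The Runt motif was at 17.1%, 26.1%, 25.7% and 23.4% of the member summits against 26.7%, 24.9%, 23.2% and 21.9%. The GLIS core was at 3.66%, 5.68%, 11.4% and 6.38% against 4.23%, 3.83%, 7.72% and 7.89%. Every list share for these 4 motifs lay inside the interval of the member share, which was as wide as 10.4 to 40.1% for CAGCTG at the 35 ETO2-GLIS2 summits of 12 h. In windows of 100 bp, 3 of 36 list shares (9 patterns in 4 lists) lay outside the interval, all for E-boxes of AML1-ETO. CAGCTG was at 0 of 88 member summits at 48 h (interval 0.00 to 4.11), against 7.77% of the list. CACCTG was at 24.4% at 12 h (interval 15.6 to 35.1) against 12.7%, and CANNTG at 34.1% at 48 h (24.3 to 45.0) against 45.3%. The median GC content of the 200 bp windows was 51.5%, 52.2%, 60% and 59.5%, against 52%, 51%, 57% and 59% over the lists.

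**Figure D4:**
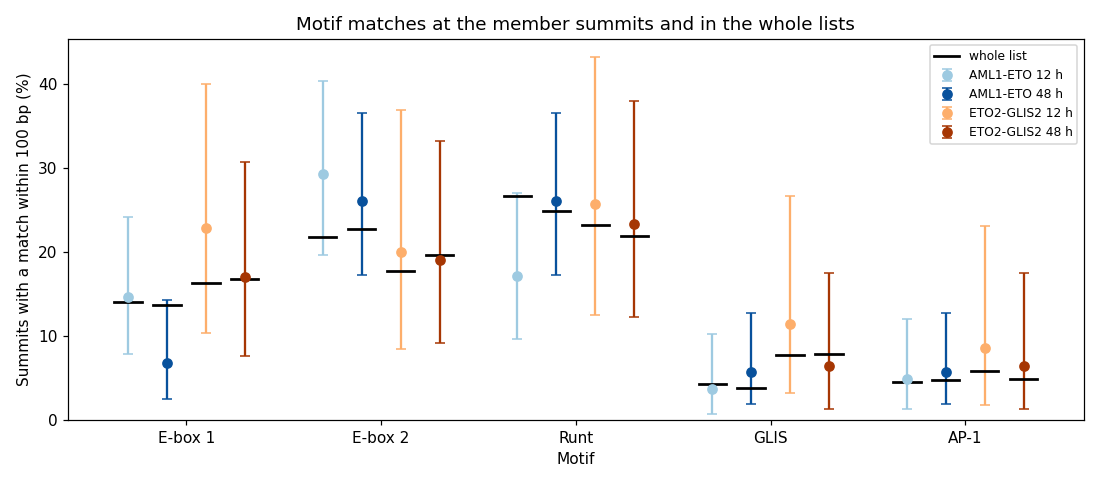
Percent of summits with a match within 100 bp (vertical axis) for the CAGCTG E-box (E-box 1), the CACCTG E-box (E-box 2), the Runt, GLIS and AP-1 motifs; points are the member summits of each list with exact 95% binomial intervals, and black lines are the whole list. The black lines lie within the intervals, for example 13.7% against 2.54 to 14.3 for E-box 1 in AML1-ETO at 48 h.

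A start-site peak in all 4 lists, as at TCF3, TCF12 and ID3, was found at 7225 protein-coding genes. By distance between their best start-site ranks (log10 of percent of the list, 4 lists), the genes most like TCF3 were EPN2 (0.0661), ARHGAP25 (0.119) and MYO1A (0.159). Those most like TCF12 were LRP11 (0.144), CLU (0.182) and CHSY1 (0.182), and those most like ID3 were POLR3B (0.0803), USP14 (0.0951) and STBD1 (0.105).

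Of 35 further genes for partners of E proteins or parts of the ETO complex, mostly tissue-specific bHLH factors, 22 and 23 had an AML1-ETO peak (62.9% and 65.7%) and 14 and 15 an ETO2-GLIS2 peak (40% and 42.9%). Start-site peaks were fewer, at 8, 9, 3 and 4 genes in the 4 lists (22.9%, 25.7%, 8.57% and 11.4%). All 8 shares were below those of protein-coding genes as a whole, given above. The genes with a start-site peak in all 4 lists were LMO2, LDB1 and OLIG1. LMO2, a LIM-only adaptor that bridges TAL1 and LDB1, had the strongest AML1-ETO peaks of these, at 0.582% and 0.261% of the list, and its ETO2-GLIS2 peaks were at 33.7% and 29%. LDB1, the LIM-domain-binding scaffold, was at 13.4% and 55.7% with AML1-ETO, then 25.4% and 5.79% with ETO2-GLIS2. OLIG1, a bHLH factor of oligodendrocytes, was at 6.36% and 3.31% against 30.5% and 21.9%. TAL1 and LYL1 encode bHLH partners of E proteins in blood cells. TAL1 had 1 AML1-ETO peak at each time, both start-site peaks (29.4% and 27.5%), and none for ETO2-GLIS2. LYL1 had 6, 17, 7 and 11 peaks, none with a summit within 1 kb of a start site. Whether a peak covered its start site was not counted.

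Among 6 other helix-loop-helix genes, 5, 6, 4 and 4 had a peak (83.3%, 100%, 66.7% and 66.7%) and 3, 4, 4 and 3 had a start-site peak. Those with a start-site peak in all 4 lists were HES4, a repressor of the HES family, and BHLHE40, a repressor that binds class B E-boxes. BHLHE40 ranked at 0.596% and 0.121% in the AML1-ETO lists, then 0.745% and 0.322% in the ETO2-GLIS2 lists. Its best start-site peak was thus in the strongest 1% of every list. No start-site peak of an E-protein or ID gene ranked that high for ETO2-GLIS2, and for AML1-ETO only that of TCF12 at 48 h did. The wide AML1-ETO peak that covered the ID1 start site at 48 h was at 0.634%. Its summit lay over 1 kb away, so it was not a start-site peak.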

How the data were processed

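Anti-HA ChIP-seq was done in doxycycline-treated U937 lines, with 4 ChIP and 4 input libraries. Sample titles gave the groups, also for the 12 h samples, whose protocol text speaks of 48 h. Per the labels and the methods, the authors aligned reads to hg19 with Bowtie2 (2.2.9) and called peaks in each ChIP library with MACS2 (2.1.1.20160309), and SAMtools (1.7) and deepTools are also named. The settings of MACS2 and the treatment of duplicate reads are not given in the sources used here.

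The deposited peak lists give fold enrichment as a linear ratio, −log10 p-values, −log10 q-values, a score equal to the whole part of 10 times −log10 q, and the summit. The authors' peak caller computed all of these, and all depend on depth and on how well the precipitation worked, so peaks were ranked only within a list. The inputs entered only through the authors' peak calls.

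Only chromosomes 1 to 22, X and Y were used. Start sites, exons and gene types came from GENCODE 44 lifted to GRCh37, and sequences from GRCh37, whose chromosome lengths hold all peaks. Motifs were counted on both strands in 200 bp centred on the summit. Python 3.11.15 with pandas 2.3.3, numpy 2.4.6, scipy 1.17.1 and matplotlib 3.10.9 was used. The functions were tested on simulated data and gave the right answer in 6400 of 6400 cases.

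The 7 genes and the lists of other genes were chosen with earlier results of these data known. The text gives in full, per gene and list, the best-ranked peak and the best start-site peak. It also names protein-coding genes nearer to a described summit, partner genes with a start-site peak in all 4 lists, and the 3 genes nearest in start-site rank. TAL1, LYL1 and E2F2, the intron 18 peak of TCF3 outside the AML1-ETO 48 h list, the intron 20 peak of TCF12, and the comparison of genes as long as TCF4 were chosen after their values were seen. Alternatives were the gene body only, 50 kb windows, −log10 q of at least 5 or 10, 28325 peaks per list, stricter overlap, other start-site rules, ranking by fold and 100 bp or flanking motif windows.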

Additional observations from a re-analysis of the deposited data

How the results depend on the processing

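Of 100 recomputed counts and shares, 58 stayed within 1.5 times the reported count or inside the interval of the reported share, and 42 did not. The counts of peaks were set by the window and by the strength required. In the order AML1-ETO at 12 and 48 h, then ETO2-GLIS2 at 12 and 48 h, the gene body only held 31, 37, 16 and 11 peaks, and with it the genes with a peak fell to 3 for AML1-ETO at 48 h and 3 for ETO2-GLIS2 at 48 h. Windows of 50 kb held 137, 55 and 76 peaks in the last 3 lists. A −log10 q of at least 5 left 35, 39, 22 and 30 peaks, and of at least 10 left 20, 20, 17 and 17, with 3 genes keeping a start-site peak for ETO2-GLIS2 at 12 h. With the 28325 strongest peaks per list, 33 and 21 AML1-ETO peaks remained at 12 and 48 h.

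The shares moved with the overlap rule. Covering at least 50% of the peak gave 19.5% and 12.5% of AML1-ETO peaks shared at 12 and 48 h, and 18.2% of those at 48 h found at 12 h. Summits within 200 bp gave shared shares of 22%, 15.9%, 51.4% and 29.8%, and 26.8% and 25.0% of AML1-ETO peaks found at the other time. Requiring a −log10 q of 5 or more in both lists gave 54.3% and 41.0% of AML1-ETO peaks shared, and 94.3%, 53.8%, 86.4% and 76.7% found at the other time. Equal list lengths gave 69.7% and 76.2% of AML1-ETO peaks shared and 87.9% and 85.7% found at the other time. In the gene body only, 13.5% of AML1-ETO peaks at 48 h and 62.5% of ETO2-GLIS2 peaks at 12 h were shared, and 72.7% of ETO2-GLIS2 peaks at 48 h were found at 12 h. Cutting the lists removes peaks by construction, and no other cause was tested. Whole-list shares under these rules are not given here.

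No paired analysis was possible because each condition had 1 ChIP library and no test was made. Of 76 motif and rank values, 56 stayed within their limits and 20 did not, 15 of them in 100 bp windows, where the list shares are lower too. For motifs the limit was the interval of the reported share. For the median ranks it was the standard deviation of the member ranks in percent, a loose limit. The lists carry no read numbers, so binding at ID4, or of ETO2-GLIS2 at TCF4, is only known to be under the threshold of these lists.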
